A study of Mus musculus with 6 samples.

Results

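NK cell nuclei of the liver, defined here by transcripts of natural killer (NK) receptors and granule proteins in the absence of T cell transcripts, made up 114 of 39012 nuclei kept from 41882 barcodes. A nucleus was kept with over 200 and under 5000 genes and under 5% mitochondrial UMIs, a UMI (unique molecular identifier) being 1 counted RNA molecule. It was selected by UMIs of at least 2 of 7 genes (Ncr1, Klre1, Klrb1c, Klra8, Gzma, Eomes and Prf1), by 0 UMIs of Cd3e, Cd3g, Cd8a, Cd8b1 and Themis, and by at most 1 UMI in sum of Stab2, Ptprb, Pax5, Clec4f and Reln, which mark other liver cells. The levels of these 17 genes in the selected nuclei were therefore fixed by the selection and are given without a test. The 6 livers came from 6 male DIAMOND mice, a diet-induced fatty liver line from a 129A1/SvIm and C57BL/6J cross with no engineered allele stated, and were snap-frozen and read as 1 single nuclei RNA sequencing (snRNAseq) library each. The Ctrl mice (n = 2) ate standard chow for 40 weeks. The Pre-T mice (n = 2) ate a Western diet, rich in fat and given with sugared drinking water, over 40 weeks and were taken before tumors formed, and the Post-T mice (n = 2) ate it for 48 weeks and were taken after tumors had formed. Diets began at 2 months of age in every group and the groups were kept in different cages, so that diet, cage and, for Post-T, time on diet cannot be told apart. The titles of the Post-T samples say tumor while their tissue label says liver, so the part of the organ that gave those nuclei is not known.

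NK cells are innate lymphocytes that kill infected or transformed cells without a rearranged antigen receptor. Activating receptors such as Ncr1 and Klrk1 (NKG2D) are read against inhibitory receptors for class I molecules, which in the mouse are mostly Ly49 (Klra) and NKG2 (Klrc) proteins encoded by a gene cluster on chromosome 6, and killing is done by perforin and granzymes. The liver sinusoids hold both circulating NK cells, which carry Itga2 (CD49b) and depend on Eomes, and a resident relative, the type 1 innate lymphoid cell (ILC1), which carries Itga1 (CD49a), Cxcr6 and Il7r and shares Ncr1 with NK cells.

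The promoters of 4 NK genes are shown because members of one set, those chosen by the selection or those higher in NK nuclei than in T nuclei below, shared a short motif in them. Each line gives the 250 bases before a start site, 5′ to 3′ on the strand of the gene, from RefSeq on GRCm38.p6, and capitals mark a match to the RUNX motif TGTGGTT or to its other strand, AACCACA.
Ncr1, chr7:4337465-4337714, plus strand: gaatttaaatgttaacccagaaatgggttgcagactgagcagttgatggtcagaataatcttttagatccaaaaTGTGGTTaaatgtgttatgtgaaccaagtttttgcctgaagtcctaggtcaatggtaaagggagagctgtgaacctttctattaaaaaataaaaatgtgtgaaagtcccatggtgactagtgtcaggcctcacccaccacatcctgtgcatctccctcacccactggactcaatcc
Klre1, chr6:129577963-129578212, plus strand: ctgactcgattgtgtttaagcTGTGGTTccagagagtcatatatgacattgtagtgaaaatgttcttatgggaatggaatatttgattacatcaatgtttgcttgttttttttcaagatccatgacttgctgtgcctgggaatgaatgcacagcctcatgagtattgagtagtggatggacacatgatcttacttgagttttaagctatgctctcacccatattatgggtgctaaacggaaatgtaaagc
Gzma, chr13:113100982-113101231, minus strand: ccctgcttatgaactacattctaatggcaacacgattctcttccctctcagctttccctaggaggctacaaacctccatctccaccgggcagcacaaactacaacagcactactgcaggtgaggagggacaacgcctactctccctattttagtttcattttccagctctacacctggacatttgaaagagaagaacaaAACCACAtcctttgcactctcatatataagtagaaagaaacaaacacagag
Klrk1, chr6:129623865-129624114, minus strand: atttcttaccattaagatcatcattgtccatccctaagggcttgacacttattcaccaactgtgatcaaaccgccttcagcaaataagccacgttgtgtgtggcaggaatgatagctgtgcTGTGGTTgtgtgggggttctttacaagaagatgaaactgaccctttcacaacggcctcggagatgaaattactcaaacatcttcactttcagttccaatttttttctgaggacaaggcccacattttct
The match began 176 bases before the start in Ncr1, 229 in Klre1, 51 in Gzma and 129 in Klrk1. Ncr1 and Klre1 each have a second start window in the table, which held the motif in Ncr1 and held 0 matches in Klre1 (chr6:129578036-129578285), and a gene is counted below if any of its windows held it. Of 32851 such promoter windows 4.40% held the RUNX motif on either strand, which is 5.08% of 27025 genes. Of the 7 NK genes of the selection, 3 held it, namely Ncr1, Klre1 and Gzma. Of the 17 other NK and Ly49 genes that were higher in NK than in T nuclei, 15 had a window and 3 of these held it, namely Klrk1, Txk and Klra1. The ETS motif AGGAAGT, present in 8.80% of genes, was matched in 1 of the 7 (Prf1) and in 3 of the 15 (Klrb1f, Txk and Il18rap). The T-box motif GGTGTGA, present in 3.84% of genes, was matched in 0 of the 7 and 0 of the 15. No site overlapped another of these motifs in the windows shown. A match says only that these letters stand in the window.

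The NK label was borne out by further NK genes in 5 of the 6 mice. Whether a nucleus came from an NK cell or an ILC1 was not tested. Of 22 further NK genes that the selection did not read, all 112 nuclei of the mice other than Post-T 2 carried at least 2, with medians of 7 and 5.5 genes in Ctrl, 7 and 5.5 in Pre-T and 6.5 in Post-T 1. The 2 nuclei of Post-T 2 carried 0 of the 22. Their leading transcript was Gm42418 with 25.3% of their UMIs, followed by Cmss1, Camk1d, Alb, Lars2 and Apoe. Of the 7 selecting genes they had 4 UMIs of Ncr1 and 1 each of Klre1, Klrb1c and Gzma. Of the Ly49 genes outside the selection, which are not among the 22, they had 1 UMI, of Klra5. In these 2 nuclei the data went against the label, and the shares and the counts of called genes are given with and without them. At least 1 of the 22 genes was found in 98.2% of NK nuclei (112 of 114). Among nuclei of other kinds, the share with at least 1 was 77.9% of T nuclei (292 of 375), 44.0% of nuclei that carried a single NK gene (121 of 275) and 15.2% of nuclei with at least 3 of 10 endothelial genes (839 of 5523). Carrying 1 of the 22 genes thus did not by itself set NK nuclei apart from T nuclei. The endothelial-marked nuclei, whose median depth was 1764 to 3160 UMIs per mouse against 1086 to 1733 in NK nuclei, are a rough stand-in for RNA free in the suspension. They also hold transcripts of their own, and no empty droplets were examined.

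Of the 114 nuclei, 53 carried 2 of the 7 selecting genes, 36 carried 3, 16 carried 4 and 9 carried 5 or more. Just outside the selection lay 275 nuclei with 1 of the 7 genes, 16 with 2 or more and a T cell UMI, 33 with 2 or more UMIs of the other liver cells and 5 that failed the gene or mitochondrial limits. Just inside were 33 nuclei with exactly 1 UMI of the other liver cells. Of the 5523 endothelial-marked nuclei, 7 (0.127%) carried 2 or more NK genes without a T cell UMI, 5 of them in Pre-T 1 and 2 in Post-T 2. No doublet caller was run, and doublets were limited only by the genes the selection barred. None of the 114 barcode sequences was seen in another library, although 181 sequences in all were.

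By mouse the selection found 31 and 30 NK nuclei in the Ctrl mice, 21 and 26 in the Pre-T mice, and 4 and 2 in the Post-T mice. Library depth was 22453658 to 40307564 UMIs, and NK nuclei held a median of 1427 and 1086 UMIs in the Ctrl mice, 1510 and 1733 in the Pre-T mice and 1396 and 1100 in the Post-T mice. Summed over its NK nuclei a mouse gave 58290 and 56568 UMIs in Ctrl, 51054 and 46135 in Pre-T and only 6442 and 2199 in Post-T, so that 1 UMI was worth far more of a Post-T level than of any other. The plot of NK nuclei by depth shows 8 nuclei of more than 4000 UMIs, a limit chosen after the data were seen, all in Ctrl and Pre-T. They held 22.0% and 45.6% of the NK UMIs of the Ctrl mice and 39.7% and 9.24% of those of the Pre-T mice.

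**Figure D1:**
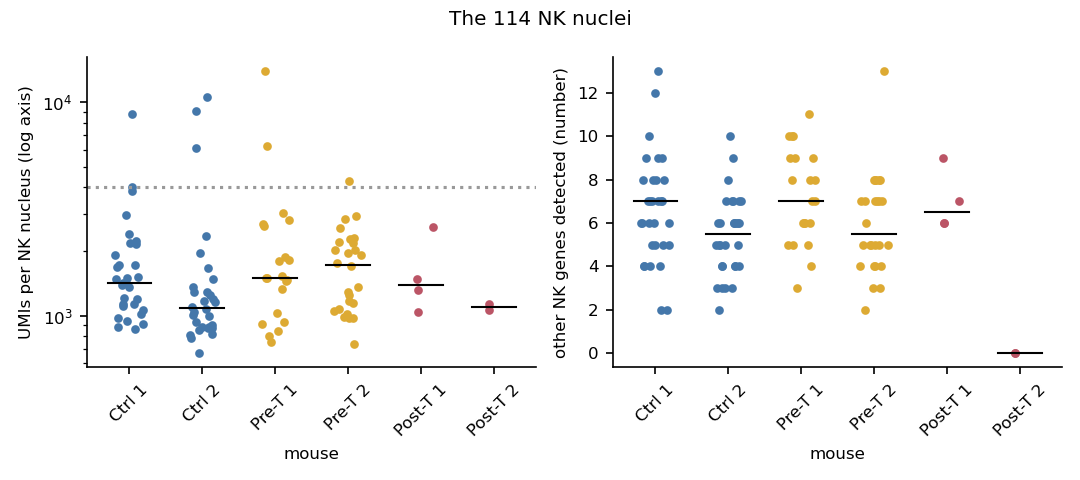
Each point is 1 NK nucleus in 1 of the 6 mice, with its total UMIs on a log axis (left, dotted line at 4000 UMIs) and the number of 22 NK genes outside the selection that it carried (right), and bars are the medians of a mouse. The 112 nuclei of 5 mice carry at least 2 of the 22 genes and the 2 nuclei of Post-T 2 carry 0.

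Among the 7 selecting genes, Ncr1 (NKp46; ENSMUSG00000062524, chr7:4337724-4345164), the activating receptor shared by NK cells and ILC1s, led with a UMI in 85.1% of the 114 nuclei. Its UMIs numbered 54 and 46 in the Ctrl mice, 45 and 38 in the Pre-T mice and 12 and 4 in the Post-T mice. Levels are given as CPM, the UMIs of a gene per 1000000 UMIs in the summed nuclei of a mouse, and that of Ncr1 was 926 and 813 CPM in the Ctrl mice, 881 and 824 in the Pre-T mice and 1863 and 1819 in the Post-T mice, with the Pre-T values between the 2 Ctrl values. Klre1 (ENSMUSG00000050241, chr6:129577905-129585827), which encodes a lectin-like receptor, was found in 60.5% of nuclei, with UMIs numbering 29 and 25 in the Ctrl mice, 25 and 24 in the Pre-T mice and 2 and 1 in the Post-T mice. Gzma (ENSMUSG00000023132, chr13:113093825-113100981), the granzyme A gene, was found in 47.4% with 21 and 17 in the Ctrl mice, 16 and 14 in the Pre-T mice and 2 and 1 in the Post-T mice. These 3 genes were read in every mouse. Klrb1c (NK1.1) was found in 31.6%, the Ly49 receptor gene Klra8 in 28.9%, the perforin gene Prf1 in 18.4% and Eomes, the transcription factor of circulating NK cells, in 13.2%. Prf1 UMIs numbered 13 and 6 in the Ctrl mice, 2 and 7 in the Pre-T mice and 0 in both Post-T mice, and Eomes UMIs 5 and 4 in the Ctrl mice, 3 and 2 in the Pre-T mice and 2 and 0 in the Post-T mice. Thinned to 500 UMIs per nucleus, Ncr1 was seen in 45.9% of Ctrl and 29.8% of Pre-T NK nuclei, against 85.2% and 83.0% of whole nuclei.

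Of the NK genes that the selection did not read, the 6 given next were found at higher shares in NK nuclei than in the endothelial-marked nuclei, while Klra17 had 0.877% in NK nuclei and 3.82% in endothelial-marked nuclei. Klrk1 was found in 63.2% of NK nuclei, 12.3% of T nuclei, 14.5% of nuclei with a single NK gene and 1.27% of endothelial-marked nuclei. Il18rap, which encodes a chain of the interleukin-18 receptor, was found in 61.4% of NK nuclei, 12.5% of T nuclei, 9.09% of nuclei with a single NK gene and 0.616% of endothelial-marked nuclei. Klra4, an activating Ly49 receptor gene, was found in 60.5% of NK nuclei, 2.40% of T nuclei, 6.18% of nuclei with a single NK gene and 0.272% of endothelial-marked nuclei. All 3 were thus least frequent in the endothelial-marked nuclei, at 1.27% or less. Txk, which encodes a TEC-family kinase, was found in 58.8% of NK nuclei, 20.8% of T nuclei, 18.2% of nuclei with a single NK gene and 1.25% of endothelial-marked nuclei. Itga2 was found in 41.2% of NK nuclei, 4.53% of T nuclei, 7.64% of nuclei with a single NK gene and 2.59% of endothelial-marked nuclei. Ccl5, a chemokine gene that T cells also use, was found in 48.2% of NK nuclei, 31.5% of T nuclei, 10.9% of nuclei with a single NK gene and 1.81% of endothelial-marked nuclei. Of these 6 genes Ccl5 thus had the highest share in T nuclei and Klra4 the lowest. Klrb1f was found in 22.8% of NK nuclei and 0% of 375 T nuclei, where 0 allows a share of up to 0.8%. Klri2 was found in 0 of 114 NK nuclei, which allows a share of up to 2.63%. These are shares of nuclei with a UMI, and the kinds of nuclei differed in depth.

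**Figure D2:**
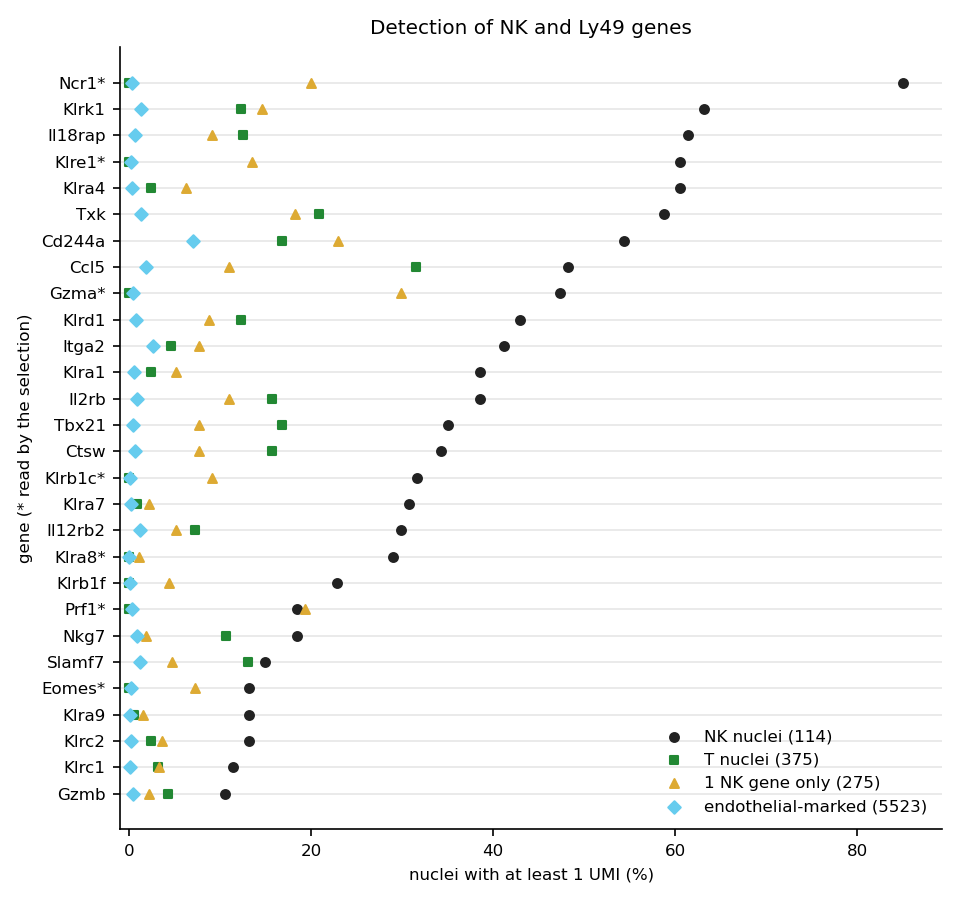
Share of nuclei with at least 1 UMI (x axis, percent) for NK genes found in at least 10% of NK nuclei, in NK nuclei, T nuclei, nuclei with a single NK gene and endothelial-marked nuclei, with genes read by the selection starred. Klrk1 stands at 63.2% in NK nuclei and at 1.27% in endothelial-marked nuclei.

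The share of NK nuclei was lower in the Post-T mice than in the other 4 mice, at a size that 2 mice per group cannot test. NK nuclei were 0.429% and 0.386% of kept nuclei in the Ctrl mice, 0.388% and 0.331% in the Pre-T mice and 0.0736% and 0.0376% in the Post-T mice. The exact (Clopper-Pearson) 95% binomial intervals, which cover counting error only, were 0.292% to 0.608% and 0.261% to 0.551% in the Ctrl mice, 0.241% to 0.593% and 0.217% to 0.485% in the Pre-T mice, and 0.0201% to 0.188% and 0.00455% to 0.136% in the Post-T mice. The intervals of the Post-T mice lay below those of every other mouse, while those of Ctrl and Pre-T overlapped. The group means were 0.407% ± 0.0302 (SD, n = 2) in the Ctrl mice, 0.360% ± 0.0403 in the Pre-T mice and 0.0556% ± 0.0255 in the Post-T mice. Nuclei with only 1 of the 7 genes numbered 43 and 44 in the Ctrl mice, 49 and 96 in Pre-T and 22 and 21 in Post-T. Of these, 20 and 13, 30 and 36, and 9 and 13 carried at least 1 of the 22 further NK genes. The size of the Post-T difference thus depends on the cut at 2 genes, and no share was computed with these nuclei added.

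Post-T minus Ctrl was -0.352 percentage points (exact two-sided permutation test, p = 0.333, the smallest that 2 against 2 mice allow), or -0.371 without the 2 nuclei of Post-T 2. Post-T minus Pre-T was -0.304 points (exact permutation p = 0.333), or -0.323 without them. Pre-T minus Ctrl was -0.0475 points (exact permutation p = 0.667), and with every nucleus thinned to 500 UMIs the difference was 0.0006, so that no direction held. All 4 Western diet mice against the Ctrl mice gave -0.200 points (exact permutation p = 0.2, smallest possible 0.0667). Adjusted over the 8 share comparisons by the Benjamini-Hochberg method, these p-values were 0.667 for Pre-T against Ctrl and 0.381 for the other 3.

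T nuclei, selected by the mirror rule (at least 2 of the 5 T cell genes, none of the 7 NK genes and at most 1 UMI of the other liver cells), numbered 32 and 79 in the Ctrl mice, 100 and 103 in the Pre-T mice and 22 and 39 in the Post-T mice. They were 0.730% ± 0.406 of kept nuclei in the Ctrl mice, 1.58% ± 0.380 in the Pre-T mice and 0.569% ± 0.232 in the Post-T mice (mean ± SD, n = 2). NK nuclei were 49.2% and 27.5% of NK and T nuclei in the Ctrl mice, 17.4% and 20.2% in the Pre-T mice and 15.4% and 4.88% in the Post-T mice. Both Ctrl mice stood above all 4 Western diet mice. The difference was -23.9 percentage points (exact two-sided permutation p = 0.0667, the smallest that 4 against 2 mice allow; adjusted p = 0.381), and -25.1 without the Post-T 2 nuclei. Without Ctrl 1, the mouse with the highest share, it was -13.1 points. Pre-T minus Ctrl was -19.6 points, and -8.76 without Ctrl 1 or -30.5 without Ctrl 2. Post-T minus Ctrl was -28.2 points, and -17.4 without Ctrl 1. Post-T minus Pre-T was -8.63 points, and -3.38 without Post-T 2 or -13.9 without Post-T 1. Each of these 3 pairs of groups had an exact permutation p of 0.333, the smallest possible. A share of nuclei depends on every other kind of nucleus counted with it.

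**Figure D3:**
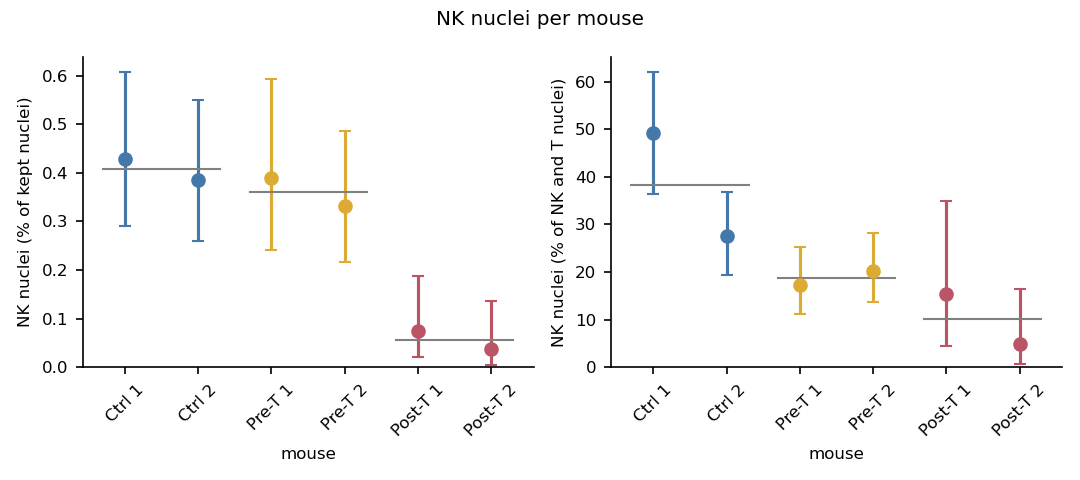
NK nuclei as percent of kept nuclei and as percent of NK and T nuclei in each of the 6 mice, with exact 95% intervals as error bars and grey bars at the group means (n = 2). Both Post-T mice lie below 0.1% of kept nuclei, and both Ctrl mice lie above the 4 Western diet mice as a share of NK and T nuclei.

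NK nuclei were then compared with the T nuclei of the same mice, to see which genes set them apart from a neighbouring lymphocyte. NK receptor genes of the Ly49 and NKG2 families and chains of the interleukin-12 and interleukin-18 receptors were higher in NK nuclei, and 8 of 15 T cell genes outside the selection were lower. UMIs were summed per mouse and kind of nucleus and tested with the edgeR quasi-likelihood test with the mouse as a block, over 13894 genes, with the 17 genes of the selection left out of the adjustment. By their rules T nuclei held none of the 7 NK genes and NK nuclei none of the 5 T cell genes. Other genes found together with these are thus pushed apart in part by the rules themselves. How much of a difference below is due to that was not tested. At an adjusted p under 0.05, 1.43% of genes were called (199), of which 74 were higher (0.533%) and 125 lower (0.9%). With size factors by the relative log expression (RLE) method in place of the trimmed mean of M values (TMM) the split was 95 higher and 94 lower, and DESeq2 called 110 of the 6076 genes it gave an adjusted p (1.81%), 69 higher (1.14%) and 41 lower (0.675%). The median log2 fold change of all genes was -0.40 with TMM and -0.15 with RLE, which is the level against which the changes below are read. Without Post-T 2 the test called 172 genes, 167 of them the same, and with nuclei of at most 4000 UMIs it called 187, 137 of them the same.

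Klra4 (Ly49D; ENSMUSG00000079852, chr6:130043731-130067271) had, in NK nuclei, 1064 and 1503 CPM in the Ctrl mice, 979 and 1149 in the Pre-T mice and 1242 and 0 in the Post-T mice. In T nuclei it had 0 and 5.83 CPM in the Ctrl mice, 36.5 and 7.75 in the Pre-T mice and 0 in both Post-T mice. The lowest of 5 NK values was thus far above the highest T value, while Post-T 2 had 0 in both (log2 fold change 6.09 ± 0.58 (SE), adjusted p = 1.19e-21). Of 9 Ly49 genes tested, 5 rose against the 0.533% of all genes (Klra4, Klra7, Klra1, Klra9 and Klra5), with a median log2 fold change over the list of 4.19 against -0.40 over all genes. Klra5 had 16 UMIs in NK nuclei and 0 in T nuclei, at least 22.0-fold higher against a floor of 3 counts over the T nuclei. These paralogs are near-identical in sequence, so that reads may be split among them or lost, and the level of any 1 of them is uncertain. Summed over the list, NK nuclei had 1767 and 2316 CPM in the Ctrl mice, 1822 and 2428 in the Pre-T mice and 2018 and 455 in the Post-T mice, and T nuclei had 14.3 and 23.3 CPM in the Ctrl mice, 97.4 and 46.5 in the Pre-T mice and 12.1 and 0 in the Post-T mice.

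Klrk1 (NKG2D; ENSMUSG00000030149, chr6:129610323-129623864), which reads stress ligands, had, in NK nuclei, 532 and 707 CPM in the Ctrl mice, 959.8 and 1127 in the Pre-T mice and 1708 and 0 in the Post-T mice. The T nuclei had 0 and 87.4 CPM in the Ctrl mice, 146 and 73.6 in the Pre-T mice and 24.3 and 49.0 in the Post-T mice. It was higher in NK nuclei in 5 of 6 mice, all but Post-T 2 (log2 fold change 3.22 ± 0.45 (SE), adjusted p = 8.74e-10). Genes of the CD94 and NKG2 receptors also rose, with log2 fold changes of 2.10 for Klrd1 (CD94), 2.08 for Klrc1 and 2.54 for Klrc2. Klrb1f had 32 UMIs in NK nuclei and 0 in T nuclei, at least 44.0-fold higher. Of 20 NK genes tested outside the selection, 12 rose and 0 fell, with a median log2 fold change of 1.98. All 12 were still called without Post-T 2. Ccl5 (0.68, adjusted p = 0.715) and Tbx21, the T-bet gene (1.17, adjusted p = 0.206), did not pass, nor did Nkg7 (1.15, adjusted p = 0.368). DESeq2 called 10 of the 20, Tbx21 and Ctsw among them.

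Itga2 (CD49b; ENSMUSG00000015533, chr13:114833081-114932100) had, in NK nuclei, 566 and 495 CPM in the Ctrl mice, 294 and 173 in the Pre-T mice and 621 and 0 in the Post-T mice. Its level in T nuclei was 14.3 and 23.3 CPM in the Ctrl mice, 28.4 and 11.6 in the Pre-T mice and 12.1 and 61.3 in the Post-T mice, so that Post-T 2 alone was higher there (log2 fold change 3.48 ± 0.47 (SE), adjusted p = 3.23e-10). Il18rap (ENSMUSG00000026068, chr1:40515362-40551705) had, in NK nuclei, 926 and 760.1 CPM in the Ctrl mice, 313 and 434 in the Pre-T mice and 931 and 0 in the Post-T mice. T nuclei of the same mice had 57.2 and 69.9 CPM in the Ctrl mice, 85.3 and 27.1 in the Pre-T mice and 97.1 and 98.1 in the Post-T mice, a lower value in every mouse but Post-T 2 (log2 fold change 2.62 ± 0.43 (SE), adjusted p = 8.22e-07). Il12rb2, a chain of the interleukin-12 receptor, had a log2 fold change of 2.33 and Il2rb, the shared chain for interleukin-2 and interleukin-15, of 1.63. Of 20 cytokine receptor, kinase and STAT genes, 3 rose (Il18rap, Il12rb2 and Il2rb) and 2 fell, Il7r (-2.50) and Tgfbr2 (-1.71). Of 18 chemokine, sphingosine phosphate and adhesion receptor genes, 3 rose (Itga2, Itgam and S1pr5) and 1 fell (Cxcr6, -2.41).

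Clnk (ENSMUSG00000039315, chr5:38706462-38876812), an adaptor of the SLP-76 family, had, in NK nuclei, 343 and 354 CPM in the Ctrl mice, 568 and 889 in the Pre-T mice and 1087 and 455 in the Post-T mice. Among T nuclei the values were 214 and 23.3 CPM in the Ctrl mice, 4.06 and 42.6 in the Pre-T mice and 0 in both Post-T mice, lower in 6 of 6 mice (log2 fold change 3.61 ± 0.47 (SE), adjusted p = 2.58e-11). Plcg2, which encodes a phospholipase C of innate receptors, was likewise higher in 6 of 6 mice (log2 fold change 3.19 ± 0.50 (SE), adjusted p = 1.49e-07). By the rule for naming genes (called, at least 50 UMIs and 1 direction in all 6 mice), 9 of 62 genes were higher in NK nuclei: Clnk, Plcg2, Samd3, 1700025G04Rik, Rap1gap2, Rnf157, Zeb2, Sept11 and Sytl3. Their log2 fold changes ran from 1.48 (Sytl3) to 3.61 (Clnk). The rule asks for the same direction in Post-T 2, where NK nuclei numbered 2 and held 2199 UMIs. A gene with 0 UMIs there could not be named as higher but could be named as lower, and Clnk passed there on 1 UMI. The split of 9 higher and 53 lower thus depends in part on that mouse and cannot be read as a balance of directions. Over all called genes 74 were higher and 125 lower with TMM, and 95 and 94 with RLE size factors. Of the 53 lower genes, Gm44174 had 1 UMI in NK nuclei and 281 in T nuclei, BE692007 1 and 269, the Wnt co-receptor gene Lgr5 1 and 117, the inhibitory receptor gene Btla 1 and 69 and Nt5e (CD73) 1 and 67.

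Of the genes of mature NK cells 5 of 11 were higher than in T nuclei, against 0.533% of all genes. Of those of less mature NK cells 3 of 8 were lower, against 0.9% of all genes. Because the comparison was with T nuclei, these counts do not measure the maturity of the NK nuclei. Among the lower genes, Tcf7 is also on the T cell list and Il7r on the ILC1 list. Zeb2 (ENSMUSG00000026872, chr2:44983632-45117395), a transcriptional repressor needed for late NK maturation, had, in NK nuclei, 1064 and 1237 CPM in the Ctrl mice, 627 and 1084 in the Pre-T mice and 776 and 909.5 in the Post-T mice. In T nuclei it had 200.1 and 216 CPM in the Ctrl mice, 325 and 469 in the Pre-T mice and 60.7 and 73.6 in the Post-T mice, lower in 6 of 6 mice (log2 fold change 1.61 ± 0.44 (SE), adjusted p = 0.0226), and it was found in 57.7% of endothelial-marked nuclei. Of 11 mature NK genes tested 5 rose, namely Zeb2, Itga2, Irf8 (2.81), the integrin gene Itgam (CD11b, 3.14) and S1pr5, an exit receptor (9 UMIs in NK against 2 in T nuclei) whose adjusted p went from 0.0479 to 0.247 without Post-T 2. Of 8 immature NK genes 3 fell, namely the interleukin-7 receptor gene Il7r, Tcf7 (-2.25) and Cd69, which had 0 UMIs in NK nuclei and was at least 1.94-fold lower. Without Post-T 2 the first 2 of these were called and Cd69 was not (adjusted p = 0.0645), and DESeq2 called Il7r alone. Medians over the 2 lists were 1.61 and -1.51, the second -1.01 with genes of 0 UMIs set at their bounds. Of 13 ILC1 genes 0 rose and 3 fell (Cxcr6, Il7r and Inpp4b, -1.66), with a median of -0.62.

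Of the granule genes, Gzma and Prf1 were read by the selection and have no test. Of 17 cytotoxic granule and death ligand genes tested 2 rose, Serpinb9 (3.22) and Serpinb6b (2.36), both inhibitors of granzymes or related proteases, and the list had a median of 0.30. The log2 fold change was 1.36 for Gzmb (adjusted p = 0.399), 1.06 for the granule protease Ctsw (adjusted p = 0.361) and -0.40 for Lyst (adjusted p = 0.875). DESeq2 called 3 of the 17, Ctsw besides both inhibitors. Of 9 cytokines and chemokines that NK cells make, 0 were called with edgeR and 0 with DESeq2, with 0 at an unadjusted p under 0.05, and Ifng had 1 UMI in NK nuclei and 7 in T nuclei. Of 22 transcription factor genes 2 rose (Zeb2 and Irf8) and 1 fell (Tcf7). Runx1, a RUNX factor gene, had a log2 fold change of 0.24 (adjusted p = 0.921). Of 10 checkpoint receptor genes 2 rose (Klrc1 and Cd244a) and 1 fell (Btla).

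Cd6 (ENSMUSG00000024670, chr19:10789341-10830058) had 0 UMIs in NK nuclei of all 6 mice and 166 in T nuclei, at least 13.4-fold lower against a floor of 3 counts over the NK nuclei. Bcl11b (ENSMUSG00000048251, chr12:107910403-108003602), the factor that holds T cell identity, had, in NK nuclei, 34.3 and 17.7 CPM in the Ctrl mice, 58.8 and 43.4 in the Pre-T mice and 0 in both Post-T mice. The T nuclei had 715 and 688 CPM in the Ctrl mice, 528 and 477 in the Pre-T mice and 376 and 503 in the Post-T mice, higher in 6 of 6 mice (log2 fold change -4.24 ± 0.59 (SE), adjusted p = 7.01e-10). Of 15 such T cell genes 8 fell (Cd3d, Cd5, Cd6, Cd28, Bcl11b, Trbc2, Lef1 and Tcf7), against 0.9% of all genes, with a median of -2.40. Trbc1, a constant segment of the T cell receptor beta chain that NK cells can transcribe without rearrangement, was not lower: it had, in NK nuclei, 412 and 300.5 CPM in the Ctrl mice, 607 and 412 in the Pre-T mice and 776 and 0 in the Post-T mice. Its level in T nuclei was 286 and 128 CPM in the Ctrl mice, 259.8 and 167 in the Pre-T mice and 206 and 233 in the Post-T mice (log2 fold change 0.67, adjusted p = 0.703, and 0.0214 with DESeq2). Trbc1 and Trbc2 are near-identical, so that reads may be split between them. Summed over the 15 genes, the NK nuclei had 1252 and 619 CPM in the Ctrl mice, 1293 and 1192 in the Pre-T mice and 1552 and 1364 in the Post-T mice, and the T nuclei 5847 and 3367 CPM in the Ctrl mice, 2541 and 2166 in the Pre-T mice and 1783 and 2599 in the Post-T mice.

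Beyond the lists, and chosen after their values were seen, Adamts14 (ENSMUSG00000059901, chr10:61197112-61273438), a secreted metalloprotease gene, had, in NK nuclei, 395 and 459.6 CPM in the Ctrl mice, 255 and 304 in the Pre-T mice and 466 and 0 in the Post-T mice. T nuclei of the same mice had 0 and 5.83 CPM in the Ctrl mice, 0 and 3.88 in the Pre-T mice and 0 and 12.3 in the Post-T mice (79 in NK nuclei against 3 UMIs, 109-fold higher with a 95% counting interval of 35.8 to 538, adjusted p = 6.84e-18). Aoah (ENSMUSG00000021322, chr13:20794113-21036617), which encodes an enzyme that deacylates lipopolysaccharide, had, in NK nuclei, 738 and 972 CPM in the Ctrl mice, 489.7 and 325 in the Pre-T mice and 1087 and 0 in the Post-T mice. Among T nuclei the values were 0 CPM in both Ctrl mice, 32.5 and 15.5 in the Pre-T mice and 0 in both Post-T mice (log2 fold change 5.07 ± 0.53 (SE), adjusted p = 6.84e-18). Both were thus close to absent from T nuclei while all NK mice but Post-T 2 carried them. The potassium channel gene Kcnq5 (2.47) and the adhesion gene Dscam (3.43) were also higher, Dscam at 0 and 53.0 CPM in the Ctrl mice.

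**Figure D4:**
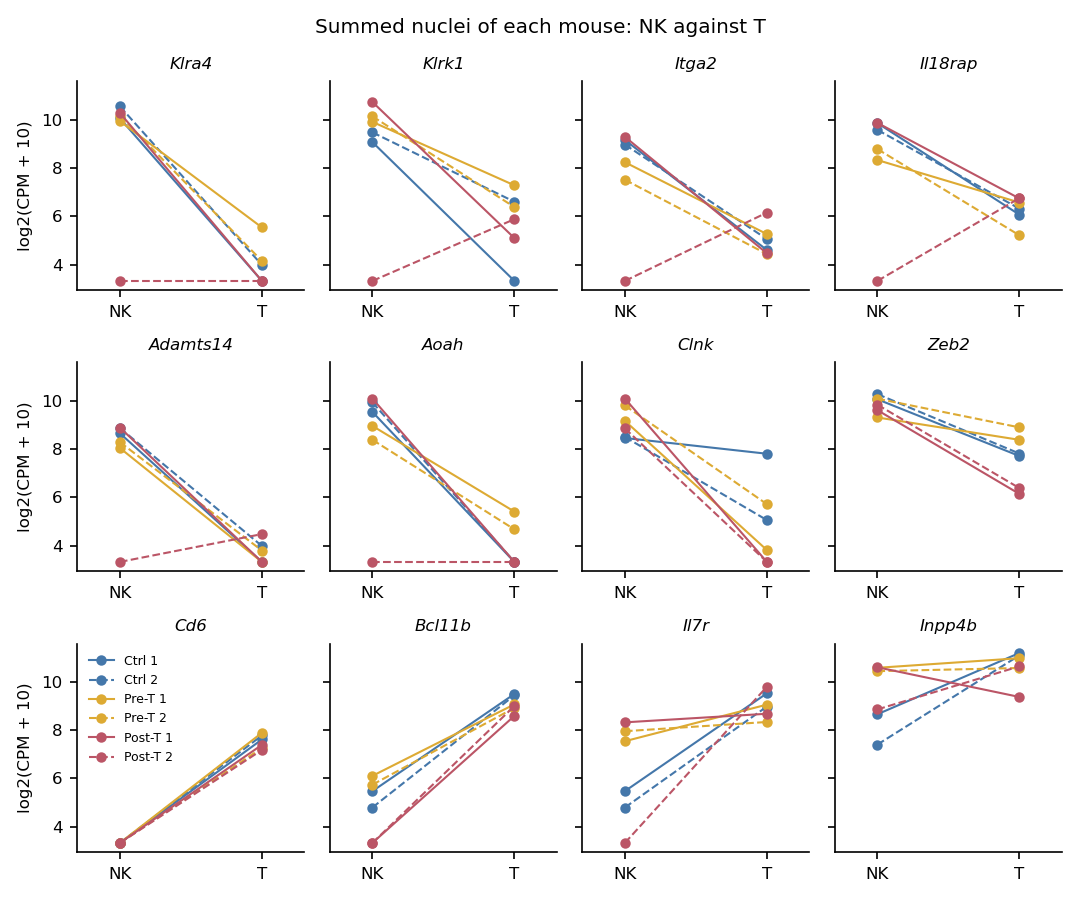
Levels, as log2(CPM + 10), of 12 genes in the NK nuclei and in the T nuclei of each of the 6 mice, each line joining the nuclei of 1 mouse. In Clnk and Zeb2 all 6 mice are higher in NK nuclei, in Cd6 and Bcl11b all 6 are lower, and Post-T 2 is at 0 in NK nuclei for Klra4, Klrk1, Itga2, Il18rap, Adamts14 and Aoah.

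Genes of other liver cells were present in both kinds of nuclei. The summed level of 15 hepatocyte genes was 33590 and 23320 CPM in the Ctrl mice, 14420 and 27270 in the Pre-T mice and 9314 and 38200 in the Post-T mice in NK nuclei, with 0 of the 15 called against T nuclei. No gene was called of the 9 macrophage and monocyte genes, 5 B cell, 10 endothelial, 10 stellate, 5 cholangiocyte or 7 granulocyte and plasmacytoid dendritic cell genes tested with edgeR or DESeq2, and none of 16 interferon response, 11 early response or 9 cell cycle genes was. At an unadjusted p under 0.05 stood 1 hepatocyte, 1 B cell, 2 endothelial, 1 stellate, 1 granulocyte and plasmacytoid dendritic cell, 1 interferon response and 1 cell cycle gene, and 0 of the others. Mki67 had 1 UMI in all NK nuclei and Top2a 6.

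The diets were compared over the summed NK nuclei of each mouse, to see whether the NK nuclei of fatty livers differed from those of chow livers. No listed NK receptor, granule, cytokine receptor or ILC1 gene passed the edgeR test, while DESeq2 called 1 ILC1 gene, Inpp4b. The edgeR quasi-likelihood test over all 6 mice, with 3 residual degrees of freedom, called 0.371% of 9422 genes between Pre-T and Ctrl (35 genes), 8 higher (0.0849%) and 27 lower (0.287%). With RLE scaling 9 were called, 4 higher and 5 lower, and DESeq2 called 18 of 1199 (1.5%), 5 higher (0.417%) and 13 lower (1.08%). The test called 0 genes without Post-T 2, without Pre-T 1 or without Pre-T 2, with 524 genes at an unadjusted p under 0.05 without Post-T 2, and it called 14 without Ctrl 1, 6 without Ctrl 2 and 8 without Post-T 1. Of the 35 called genes, 34 differed in the same direction between the group means of the T nuclei (7 higher and 27 lower). That count was not made over all genes. T nuclei of the same libraries are given beside some of the genes named, but not beside those given only as a fold change or a bound. The 2 samples of a group are separate mice. Each p-value rests on a spread within groups that was estimated over all 6 mice, the Post-T mice included.

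Etnppl (ENSMUSG00000019232, chr3:130617448-130637521), which encodes a phospholyase of the liver, had, in NK nuclei, 549 and 1821 CPM in the Ctrl mice, 19.6 and 0 in the Pre-T mice and 0 in both Post-T mice (1 in Pre-T against 135 in Ctrl UMIs, 114-fold lower with a 95% counting interval of 20.2 to 4545, adjusted p = 9.55e-07). In T nuclei it had 357 and 489 CPM in the Ctrl mice, 0 and 3.88 in the Pre-T mice and 0 in both Post-T mice. Serpina1e (ENSMUSG00000072849, chr12:103946931-103958975), an antitrypsin gene of hepatocytes, had, in NK nuclei, 3311 and 689 CPM in the Ctrl mice, 19.6 and 43.4 in the Pre-T mice and 155 and 0 in the Post-T mice (3 against 232 UMIs, 65.4-fold lower with a 95% counting interval of 22.1 to 320, adjusted p = 1.51e-06). The T nuclei had 2287 and 495 CPM in the Ctrl mice, 4.06 and 58.1 in the Pre-T mice and 121 and 0 in the Post-T mice. Both genes were thus high in both Ctrl mice and low in all 4 Western diet mice, in either kind of nucleus. Lifr, Cryl1, Acss2, Myo6 and Ank3 had 0 UMIs in the NK nuclei of both Pre-T mice and were at least 11.0-, 7.05-, 6.21-, 5.92- and 5.08-fold lower than in Ctrl. The sulfotransferase gene Sult2a8 was lower as well (1 UMI against 58, 49.1-fold with a 95% counting interval of 8.47 to 1972). Etnppl, Serpina1e and Sult2a8 are not among the 15 listed hepatocyte genes. Over 15 listed hepatocyte genes 0 were called by edgeR or DESeq2, with 1 at an unadjusted p under 0.05, with a median of -0.45 against 0.11 over all genes, and their share of the UMIs of an NK nucleus had a median of 2.81% and 1.92% in the Ctrl mice, 0.716% and 2.79% in the Pre-T mice and 1.29% and 3.83% in the Post-T mice.

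Among the genes higher in Pre-T, Lyz2, the lysozyme gene of macrophages, had, in NK nuclei, 0 CPM in both Ctrl mice, 137 and 347 in the Pre-T mice and 0 in both Post-T mice. Its level in T nuclei was 0 CPM in both Ctrl mice, 106 and 198 in the Pre-T mice and 0 and 12.3 in the Post-T mice. It was at least 9.06-fold higher in the NK nuclei of Pre-T than of Ctrl, and the macrophage and monocyte genes, summed below, had higher values in both Pre-T mice as well. Their part in the result was not tested. Apoa4, an apolipoprotein gene (29 UMIs in Pre-T against 1 in Ctrl, 34.3-fold higher with a 95% counting interval of 5.68 to 1400), had, in NK nuclei, 17.2 and 0 CPM in the Ctrl mice, 235 and 368 in the Pre-T mice and 310.5 and 1819 in the Post-T mice. T nuclei of the same mice had 14.3 and 0 CPM in the Ctrl mice, 122 and 318 in the Pre-T mice and 97.1 and 1312 in the Post-T mice, again higher in both Pre-T than in both Ctrl mice. Dscam, chosen after its values were seen, had, in NK nuclei, 0 and 53.0 CPM in the Ctrl mice, 627 and 412 in the Pre-T mice and 621 and 0 in the Post-T mice (51 against 3 UMIs, 20.1-fold higher with a 95% counting interval of 6.50 to 101, adjusted p = 0.0018). Among T nuclei the values were 14.3 and 0 CPM in the Ctrl mice, 20.3 and 15.5 in the Pre-T mice and 109 and 0 in the Post-T mice, so that the Pre-T rise was seen in NK nuclei at a level that T nuclei did not reach. The difference between the 2 kinds of nuclei in this rise was not tested.

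Lists of NK biology held no gene that edgeR called between Pre-T and Ctrl. Called were 0 of 20 NK genes outside the selection (median log2 fold change 0.15), 0 of 8 Ly49 genes (0.45), 0 of 15 granule and death ligand genes (0.24), 0 of 11 mature NK genes (0.13), 0 of 19 cytokine receptor genes (0.12), 0 of 16 trafficking genes (0.16) and 0 of 20 transcription factor genes (-0.20), against 0.11 over all genes. Nor was any of 5 cytokine, 4 checkpoint, 8 interferon response, 8 early response, 2 cell cycle or 9 T cell genes called, and DESeq2 called none in all of these lists. At an unadjusted p under 0.05 stood 3 of the 20 NK genes (Itga2 and Il18rap lower, Cd7 higher), 0 Ly49, 1 granule, 2 mature NK, 2 cytokine receptor, 2 trafficking and 1 transcription factor gene. Of the further lists, 1 checkpoint, 1 early response and 1 cell cycle gene did, and 0 cytokine, interferon response and T cell genes. Of 7 immature NK genes 0 were called by edgeR or DESeq2 and 3 had an unadjusted p under 0.05, with a median of 1.66, or 1.07 with genes of 0 UMIs in a group at their bounds. Klra4 had a log2 fold change of -0.37 (adjusted p = 0.958), Klrk1 of 0.64 (adjusted p = 0.951), Itga2 of -1.28 (adjusted p = 0.71) and Il18rap of -1.28 (adjusted p = 0.72). For Itga2, 58.1% and 56.7% of Ctrl and 23.8% and 19.2% of Pre-T NK nuclei carried an Itga2 UMI, or 19.4%, 33.3%, 9.52% and 11.5% once each nucleus was thinned to 500 UMIs. For Klrk1, 54.8% and 50% of Ctrl and 81.0% and 76.9% of Pre-T NK nuclei carried a Klrk1 UMI, or 19.4%, 30%, 42.9% and 42.3% once each nucleus was thinned to 500 UMIs.

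ILC1s share Ncr1 with NK cells, so their genes were read next. Of 11 ILC1 genes tested between Pre-T and Ctrl, edgeR called 0 and DESeq2 called 1 (Inpp4b), 5 had an unadjusted p under 0.05 and 9 had a log2 fold change above 0, with a median of 1.75 against 0.11 over all genes, of which 54.3% were above 0. Macrophage and endothelial genes had higher sums in both Pre-T mice too. The 11 macrophage and monocyte genes summed to 34.3 and 212 CPM in Ctrl and 411 and 975 in Pre-T (Marco at 0 in all mice, 1 of 7 tested called). Their median was 2.12, or 1.345 with genes of 0 UMIs in a group at their bounds, where the ILC1 median stayed at 1.75. The 10 endothelial genes summed to 189 and 195 CPM in Ctrl and 313 and 477 in Pre-T (0 of 8 tested called, median 1.12). Their part in the result was not tested. Inpp4b (ENSMUSG00000037940, chr8:81342556-82127914), a phosphoinositide phosphatase gene of ILC1s, had, in NK nuclei, 395 and 159 CPM in the Ctrl mice, 1528 and 1387 in the Pre-T mice and 1552 and 455 in the Post-T mice (log2 fold change 2.26 ± 0.70 (SE), adjusted p = 0.134, and 0.0351 with DESeq2). In T nuclei it had 2345 and 2191 CPM in the Ctrl mice, 2018 and 1519 in the Pre-T mice and 655 and 1594 in the Post-T mice, so that the Pre-T mice were above the Ctrl mice in NK nuclei only, and no test of that contrast between nuclei was made. By nucleus, 32.3% and 10% of Ctrl and 57.1% and 46.2% of Pre-T NK nuclei carried an Inpp4b UMI, or 16.1%, 10%, 42.9% and 38.5% once each nucleus was thinned to 500 UMIs. It was found in 25.7% of endothelial-marked nuclei.

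Cd200r1 (ENSMUSG00000022667, chr16:44765736-44794978), an inhibitory receptor gene, had, in NK nuclei, 17.2 and 17.7 CPM in the Ctrl mice, 176 and 304 in the Pre-T mice and 466 and 0 in the Post-T mice (23 against 2 UMIs, 13.6-fold higher with a 95% counting interval of 3.36 to 119, adjusted p = 0.0612). The T nuclei had 0 and 29.1 CPM in the Ctrl mice, 73.1 and 50.4 in the Pre-T mice and 36.4 and 24.5 in the Post-T mice. Il7r had, in NK nuclei, 34.3 and 17.7 CPM in the Ctrl mice, 176 and 238 in the Pre-T mice and 310.5 and 0 in the Post-T mice (20 against 3 UMIs, 7.88-fold higher with a 95% counting interval of 2.34 to 41.4, adjusted p = 0.215). In T nuclei it was higher in every mouse, with 729 and 495 CPM in the Ctrl mice, 524 and 314 in the Pre-T mice and 400.3 and 883 in the Post-T mice. For both genes both Pre-T mice were above both Ctrl mice in NK nuclei, and for Cd200r1 in T nuclei as well. How many of all genes were separated in this way was not counted. Tmem176a had, in NK nuclei, 17.2 and 0 CPM in the Ctrl mice, 137 and 282 in the Pre-T mice and 0 in both Post-T mice (20 UMIs against 1, 23.6-fold higher with a 95% counting interval of 3.78 to 979.7, adjusted p = 0.0515) and Tmem176b had 12 UMIs in Pre-T and 0 in Ctrl (adjusted p = 0.0786). In T nuclei Tmem176a had 14.3 and 29.1 CPM in the Ctrl mice and 56.8 and 186 in the Pre-T mice, and Tmem176b 14.3 and 29.1 and then 81.2 and 155, so that both Pre-T mice stood above both Ctrl mice there too. Rora (-0.75, adjusted p = 0.87) did not lie higher in Pre-T. Summed over the 13 genes of the list, NK nuclei had 1235 and 902 CPM in the Ctrl mice, 2860 and 3143 in the Pre-T mice and 2949 and 1364 in the Post-T mice, and T nuclei had 3646 and 3927 CPM in the Ctrl mice, 3666 and 3034 in the Pre-T mice and 1723 and 3690 in the Post-T mice. Of the defining ILC1 genes, Itga1 had, in NK nuclei, 137 and 88.4 CPM in the Ctrl mice, 176 and 130.1 in the Pre-T mice and 0 and 455 in the Post-T mice. Cxcr6 UMIs in NK nuclei numbered 1 and 2 in the Ctrl mice, 0 and 1 in the Pre-T mice and 1 and 0 in the Post-T mice.

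**Figure D5:**
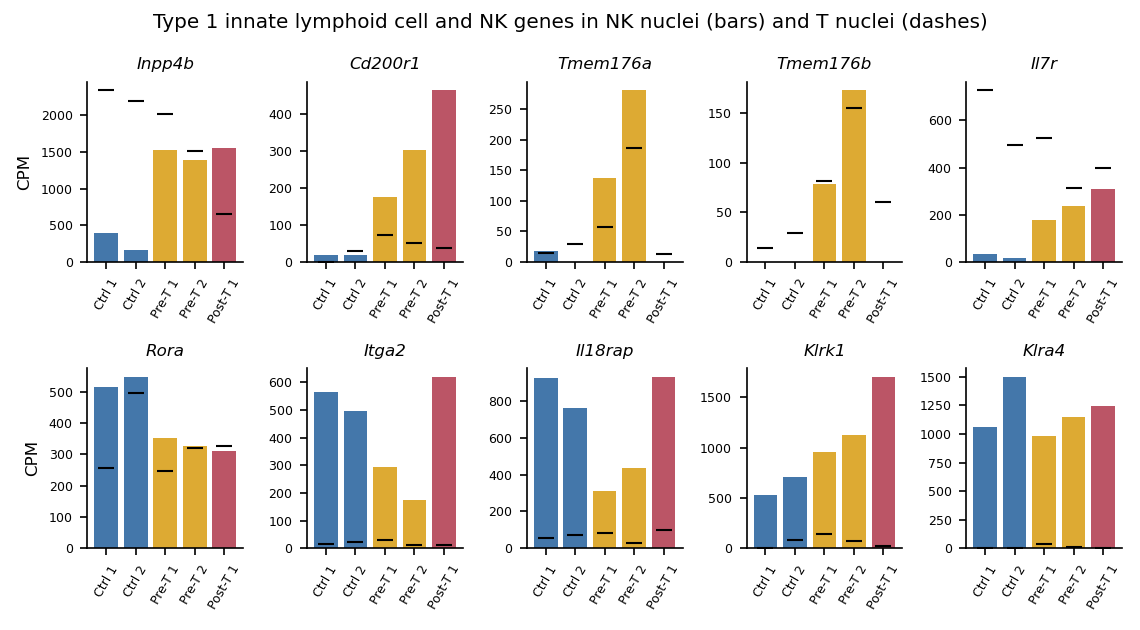
Levels in CPM of 6 ILC1 genes and 4 NK genes outside the selection in the NK nuclei (bars) and T nuclei (dashes) of 5 mice. The defining ILC1 genes Itga1 and Cxcr6 are given in the text and not drawn. Post-T 2 was left out because its 2 nuclei carried 0 of the 22 further NK genes. Inpp4b, Cd200r1, Tmem176a, Tmem176b, Il7r and the NK gene Klrk1 are higher in both Pre-T mice than in both Ctrl mice. None of the 10 genes passed the edgeR test between the diets. Klra4, Klrk1, Itga2, Il18rap, Il7r and Inpp4b were called between NK and T nuclei.

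Post-T against Ctrl rested on 6 NK nuclei, and the 10 called genes with the largest change, Slc7a2, Mup3, Egfr, Etnppl, Tat and Arg1 among them, all had 0 UMIs in the Post-T nuclei. The edgeR test called 0.287% of genes (27), 1 higher (0.0106%) and 26 lower (0.276%), with a median log2 fold change of -2.73 over all genes, against which a lower value must be read. It called 0 with RLE scaling, 0 with the mice of the 2 groups alone and 0 without Post-T 1, Post-T 2, Pre-T 1 or Pre-T 2, and DESeq2 called 33 of the 469 genes it gave an adjusted p (7.04%), 3 higher (0.64%) and 30 lower (6.4%). The cationic transporter gene Slc7a2 was at least 5.99-fold lower, the major urinary protein gene Mup3 at least 4.51-fold and Egfr at least 4.39-fold, against a floor of 3 counts over the Post-T nuclei that equals 347 CPM. Cps1, the entry enzyme of the urea cycle, had, in NK nuclei, 2213 and 4472 CPM in the Ctrl mice, 1038 and 368 in the Pre-T mice and 155 and 0 in the Post-T mice (1 against 382 UMIs, 28.7-fold lower with a 95% counting interval of 5.13 to 1138, adjusted p = 0.00888). Its level in T nuclei was 2287 and 2027 CPM in the Ctrl mice, 605 and 1465 in the Pre-T mice and 4416 and 208 in the Post-T mice. The T nuclei of Post-T 1 thus held the highest of the 6 T values. No list of NK, ILC1 or T cell genes held a gene called by edgeR, and DESeq2 called 1, the transcription factor gene Ikzf3. At an unadjusted p under 0.05 stood 4 of 20 NK genes (Klrb1f, Il18rap, Cd244a and Ctsw) and 1 of 8 Ly49 genes (Klra4), in a fit where 13.7% of all genes lay above 0. Klrb1f and Ctsw had 0 UMIs in Post-T, where the floor of 347 CPM lay above their Ctrl levels of 131 and 200.2 CPM, so that no direction can be read for them.

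Post-T against Pre-T called 0 of 9422 genes (0%) with edgeR, with 659 at an unadjusted p under 0.05, and 0 with DESeq2, with 166. The lowest adjusted p-values were those of Scp2 and Mup20 (adjusted p = 0.303 each) and of Ikzf3, the Aiolos gene (adjusted p = 0.41). All 4 Western diet mice against Ctrl called 1.07% of genes (101), 2 higher (0.0212%) and 99 lower (1.05%), in a fit whose median log2 fold change over all genes was -1.20 with 20.1% of genes above 0, and DESeq2 called 38 of 1564 (2.43%), 3 higher (0.192%) and 35 lower (2.24%). The count was 0 without Post-T 2, Pre-T 1 or Pre-T 2, 2 without Post-T 1, 11 without Ctrl 2 and 48 without Ctrl 1. The lowest adjusted p-values were again those of Etnppl (1 UMI against 135, 124-fold lower with a 95% counting interval of 22.0 to 4949, adjusted p = 5.72e-09) and Serpina1e (log2 fold change -5.74 ± 0.81 (SE), adjusted p = 5.72e-09). Of the lists, the 15 hepatocyte genes held 1 called gene, Cps1 (log2 fold change -4.26 ± 0.82 (SE), adjusted p = 0.000151), and no list of NK, ILC1, T cell or macrophage genes held any with edgeR or DESeq2. At an unadjusted p under 0.05 stood 3 of 20 NK genes, all with a fitted change below that median (Itga2, Il18rap and Ctsw), and 4 of 11 ILC1 genes, 3 higher (Il7r, Cd200r1 and Inpp4b) and 1 lower (Rora). At a depth of 4 and 2 nuclei, an absence of a call in Post-T was not informative for NK genes: the floor of 347 CPM lay above the Ctrl level of Klra1 in 1 of 2 mice and of Klra7 in both.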

How the data were processed

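The 6 snap-frozen livers of male DIAMOND mice were each read as a 10x Genomics 3′ single nuclei library, 2 mice per group, and grouped by the diet and disease state in the labels. The authors aligned the reads to mm10 with Cell Ranger 6.1.1 and deposited filtered matrices of raw UMI counts per gene and barcode, and whether intronic reads were counted is not given in the sources used here. Here, barcodes with over 200 and under 5000 genes and under 5% mitochondrial UMIs were kept, and NK and T nuclei were selected by the rules in the report. Counts were summed per mouse and kind of nucleus. Genes with at least 3 UMIs in the sums were tested with the quasi-likelihood test of edgeR 4.0.16 in R 4.3.3 (TMM, all 6 mice, the mouse as a block between kinds of nuclei), with Benjamini-Hochberg adjustment over genes the selection did not read, and with the Wald test of DESeq2 1.42.0 as an alternative. Shares were compared by exact permutation over mice. Ratios resting on 1 to 3 UMIs are given from pooled counts with exact (Clopper-Pearson) 95% intervals, which cover counting error only.

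The members, the gene lists and the tests were chosen with earlier results of these data known. Named genes are those of the selection and of the lists, plus the 10 called genes with the largest fold change, per diet comparison (at least 20 UMIs and groups that do not overlap, or the 3 with the lowest p where none was called) and per direction against T nuclei (at least 50 UMIs and 1 direction in all 6 mice), and any other gene is said to be chosen after its values were seen. Gene positions are those of GENCODE on GRCm38 (mm10), and promoter letters those of RefSeq. Alternatives were other size factors, other count filters, a stricter selection, thinning to 500 UMIs, nuclei of at most 4000 UMIs, a replicate block and leaving out each mouse. The code was tested on simulated counts. A result that the rule would name is not reported here.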

Additional observations from a re-analysis of the deposited data

Results flagged for a closer look

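Klrc2, the NKG2C receptor gene, stood higher in NK than in T nuclei in both Ctrl and both Pre-T mice and had 0 UMIs in the NK nuclei of both Post-T mice. The mean of NK minus T nuclei was 55 CPM in Ctrl, 95.2 CPM in Pre-T and -24.4 CPM in Post-T. Its NK UMIs numbered 4 and 3 in the Ctrl mice, 7 and 3 in the Pre-T mice and 0 in both Post-T mice, and its T nuclei had 0 and 2, 1 and 2, and 2 and 2 UMIs. In Post-T 3 UMIs over the NK nuclei equal 347 CPM, so that 0 UMIs there do not show a level below that of T nuclei, which was 24.3 CPM in Post-T 1 and 24.5 CPM in Post-T 2. Without Post-T 2, Post-T rests on 4 NK nuclei with 0 UMIs. The difference was not tested. Klrc2 and its neighbour Klrc1 are close paralogs, and the level of either is uncertain.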

How the results depend on the processing

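Of 161 alternatives for the shares and the counts of called genes, 119 left the direction and the call or count in place (a count within 1.5 times), 41 moved a count and 1 turned a direction. Pre-T minus Ctrl as a share of kept nuclei went from -0.0475 to 0.0006 with every nucleus thinned to 500 UMIs. Called genes between Pre-T and Ctrl (35) numbered 70 with at least 10 UMIs, 68 with at least 3 NK genes per nucleus, 18 with DESeq2, 9 with RLE size factors, 23 with no filter, 22 with the mice of the 2 groups alone and 7 with a replicate block. Post-T against Ctrl (27) gave 9 with at least 3 NK genes, 0 with RLE size factors, 7 with nuclei of at most 4000 UMIs, 0 with the mice of the 2 groups alone and 0 with a replicate block. All Western diet mice against Ctrl (101) gave 179 with at least 3 NK genes, 38 with DESeq2, 22 with RLE size factors, 64 with nuclei of at most 4000 UMIs and 34 with a replicate block, and the fit to the mice compared is there the reported one. NK against T nuclei (199) gave 39 with at least 3 NK or T genes and 110 with DESeq2. The cause was not tested.

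Leaving out 1 mouse gave 0 to 14 called genes for Pre-T against Ctrl, 0 to 8 for Post-T against Ctrl, 0 to 48 for all Western diet mice and 84 (without Ctrl 2) to 172 against T nuclei, with 106 without Ctrl 1, 92 without Pre-T 1 and 113 without Pre-T 2. Share differences of kept nuclei ran from -0.0760 to -0.0190 (Pre-T minus Ctrl), -0.373 to -0.330 (Post-T minus Ctrl), -0.333 to -0.276 (Post-T minus Pre-T) and -0.260 to -0.143 (Western diet). With a replicate block the smallest exact permutation p was 0.5 for a pair of groups. Deviations of mice with the same replicate number correlated at -0.182 (Ctrl and Pre-T), 0.0354 (Ctrl and Post-T) and -0.00349 (Pre-T and Post-T) over 2695 genes. With so few NK nuclei in Post-T, these values cannot show whether mice with the same number shared a batch.

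Of 51 named called genes against T nuclei, 14 were called under every alternative and 30 without each mouse in turn, and 0 changed direction. Of the named called genes of the diet comparisons, 0 were called under every alternative and 0 changed direction. Depth limits Post-T most: with 4 and 2 nuclei, 3 UMIs over the group equal 347 CPM.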
